A study of Mus musculus with 6 samples.

Results

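The expression of 10 genes of the Notch pathway was followed across 6 arrays of NIH3T3 cells, an established line of mouse embryonic fibroblasts: the receptors Notch1, Notch2 and Notch3, the ligands Jag1 and Jag2, the receptor modifiers Lfng and Dtx4, the nuclear factors Rbpj and Maml2, and the target gene Hes1. They were chosen by name, with earlier results of these data known. Their probes were found through the RefSeq accession that the scanner files give for each probe. This led to 13 probes for these 10 genes among 56570 probes kept. The series compared cells carrying the retroviral vector pCX4bsr with a GGCT coding sequence (GGCT-OE) with cells carrying the same vector without it (empty), 3 arrays each, from the same parental line and in medium with 2% serum. GGCT is gamma-glutamylcyclotransferase, an enzyme of glutathione breakdown, and the labels do not name the species of the inserted sequence. The labels number the experiments 1 to 3 in both groups but describe a single establishment of the infected populations, and do not say whether these were pools or clones, so the p-values below measure the spread between these experiments.

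Notch receptors are cell-surface proteins that are read out by contact with a ligand on a neighbouring cell. Ligand binding exposes the receptor to successive cuts, and the freed intracellular domain enters the nucleus, where it joins the DNA-binding protein Rbpj and a Mastermind coactivator and switches on genes such as those of the Hes and Hey families of repressors. In fibroblasts and other mesenchymal cells the pathway is known for holding cells in an undifferentiated state and for its exchange with other growth signals.

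Levels are given as log2 intensity relative to each array's 75th percentile, so that 0 is the brightness of the 75th percentile, and a level says nothing about how one probe compares with another. A difference is the mean of the GGCT-OE arrays minus the mean of the empty arrays on that log2 scale, with its standard error, and p-values are limma's, adjusted by the Benjamini-Hochberg method over all 23850 genes and unnamed transcripts tested. A call is an adjusted p below 0.05. The exact permutation test over 3 against 3 arrays cannot give a p below 0.1.

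The arrays differed widely between groups: 34.8% of all genes tested were called, 17.5% higher and 17.3% lower in GGCT-OE, and in 49.4% the groups did not overlap. Against that background 9 of the 10 Notch genes could be tested, of which 1 rose (Dtx4), 4 fell (Jag1, Lfng, Maml2 and Hes1) and 4 did not pass the test (Notch1, Notch2, Notch3 and Rbpj). Jag2 was not tested because it was above background on 1 array. The median difference of the 9 was -0.46 against 0.02 over all genes tested, and the median size of the difference, without its sign, was 0.52 against 0.29. The groups did not overlap in 6 of the 9. A called difference of at least 2-fold was found in 4 of the 9 (Dtx4, Lfng, Maml2 and Hes1), against 8.95% of all genes tested. Because the genes were chosen with earlier results of these data known, these comparisons cannot test whether Notch genes changed more than others. Lfng and Hes1 entered the test through the empty arrays, where they were brighter, and the other 7 were above background on all 6 arrays. Deviations from the group means correlated positively between arrays of the same experiment number. Arrays of the same number were on the same slide and unequal numbers were not compared, so pairing by number itself was not tested. With the experiment number as a block the counts were 2 higher and 6 lower of 9, while 53.4% of all genes were called.

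**Figure D1:**
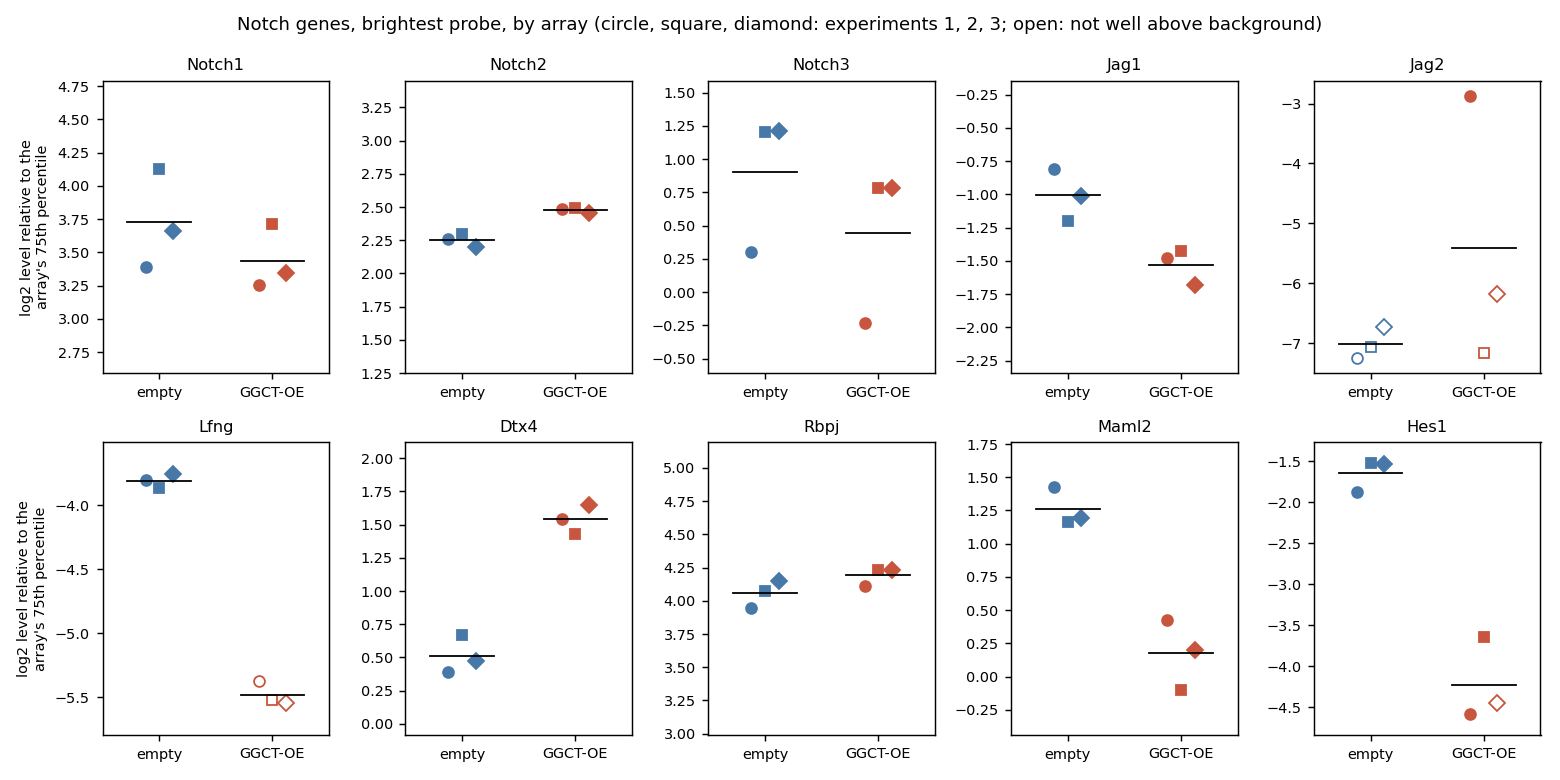
Level of each of the 10 Notch genes on every array, as log2 intensity relative to the array's 75th percentile (vertical axis, 1 panel a gene with its own range), for the empty and GGCT-OE groups; points are arrays, shapes give the experiment number, open points are not well above background and bars are group means. Dtx4 stands higher in GGCT-OE and Jag1, Lfng, Maml2 and Hes1 lower with no overlap, while Notch1, Notch3 and Rbpj overlap.

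Of the target genes, Hes1 fell. Hes1 is a basic helix-loop-helix repressor whose transcription is switched on by the Notch intracellular domain and which represses its own promoter. Its level was -1.88, -1.52 and -1.54 in empty experiments 1, 2 and 3 and -4.59, -3.64 and -4.45 in the GGCT-OE experiments. All 3 GGCT-OE arrays lay below all 3 empty arrays, and GGCT-OE experiment 3 was not well above background. The means were -1.64 ± 0.20 (SD, n = 3) and -4.23 ± 0.51 (SD, n = 3). Hes1 fell by 2.58 ± 0.27 (SE), a 5.99-fold lower intensity, with an adjusted p of 0.00113 in limma. The probe was dim, with a deposited intensity of 103, 148 and 148 in the empty cells and 16.9, 37.0 and 21.5 in GGCT-OE. With another background correction (normexp, which adds an offset and so shrinks differences of dim probes) the difference was -1.12, and the call held under all 22 alternatives that gave a value. Genes next to Hes1 on the chromosome were also more often lower: of the 10 tested on each side, 10 of 20 were called lower and 0 higher. Over all genes tested 17.3% were called lower and 17.5% higher. The median difference of the Hes1 neighbours was -0.41, and their part in the result was not tested. For the other 8 genes the median difference of the 20 neighbours lay between -0.11 and 0.13.

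The receptors carried smaller differences, none of which passed the test in the fit without the experiment number. With it 1 of 4 rose and 3 fell, beside 53.4% of all genes called. Notch1, the receptor activated by mutation in T-cell leukaemia and needed for somite and vessel formation, had levels of 3.39, 4.12 and 3.66 in the empty cells and 3.25, 3.71 and 3.35 in GGCT-OE. The groups overlapped, and in each numbered experiment the GGCT-OE array was the lower one. The difference was -0.29 ± 0.22 (SE, adjusted p = 0.362 in limma), and with the experiment number as a block the adjusted p was 0.0359. That was the only 1 of 23 alternatives to pass the threshold, and the slide as a block gave an adjusted p of 0.197. Without empty replicate 2, the highest of the 6 arrays, the difference was -0.09, and without empty replicate 1 it was -0.45.

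Notch2, the receptor with broad mesenchymal and liver expression, had levels of 2.26, 2.29 and 2.20 in the empty cells and 2.49, 2.50 and 2.46 in GGCT-OE. All GGCT-OE arrays were above all empty arrays, within a narrow spread. The difference was 0.23 ± 0.07 (SE), the adjusted p in limma was 0.0591, and with the experiment block it was 0.0238. It passed the threshold in 6 of 23 alternatives.

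Notch3, a receptor of smooth muscle and pericytes, had levels of 0.30, 1.20 and 1.21 in the empty cells and -0.23, 0.78 and 0.78 in GGCT-OE. Experiment 1 was low in both groups, so the groups overlapped, while the GGCT-OE array was lower in every experiment, by 0.53, 0.42 and 0.43. The difference was -0.46 ± 0.37 (SE; adjusted p = 0.395 in limma), and with the experiment block the adjusted p was 0.00524. The difference was -0.76 without empty replicate 1 and -0.12 without GGCT-OE replicate 1. Experiment 1 of both groups was on slide 1 and experiments 2 and 3 on slide 2, and the slide as a block gave an adjusted p of 0.00189. The only probe given to Notch3 carries that name in the files of slide 2 and the name Capzb in those of slide 1. The names of slide 2 were used after a comparison across probes whose names differ between the slides. The differences followed the other probes of the slide 2 gene (correlation 0.896 over 11 probes). They did not follow those of the slide 1 gene (-0.07 over 126 probes). The 11 and 126 probes are different sets, and the Notch3 probe, with no other probe of its gene, cannot be among the 11. Its own name was therefore not tested. Both other Capzb probes differed by -0.10 and -0.08. With the slide 1 names Notch3 has no probe.

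Of the ligands, Jag1 fell and Jag2 was almost undetected. Jag1, a membrane ligand that activates Notch receptors on adjacent cells, had levels of -0.81, -1.20 and -1.01 in the empty cells and -1.48, -1.42 and -1.68 in GGCT-OE. The groups did not overlap, although the gap between the lowest empty and the highest GGCT-OE array was small. The difference was -0.52 ± 0.13 (SE), 1.43-fold lower, with an adjusted p of 0.0254 in limma. That call was the least stable of the 5: it passed in 15 of 23 alternatives, with adjusted p values of 0.0690 without replicate 2 and 0.228 without replicate 3. Without empty replicate 1, empty replicate 3 or GGCT-OE replicate 3 alone the adjusted p lay between 0.0587 and 0.0882. Within slide 2 alone the difference was -0.45 (adjusted p = 0.0587).

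Jag2, the second Jagged ligand, was well above background on 1 of 6 arrays, GGCT-OE experiment 1, with a deposited intensity of 55.6. On the other 5 arrays its intensity lay between 2.48 and 6.46, so that no difference between the groups can be read from it. Of the Delta-like ligands in the wider list, Dll1 and Dll3 stayed below the background threshold on every array.

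Lfng (Lunatic fringe), a glycosyltransferase that extends O-fucose on the receptors in the Golgi and changes which ligands they answer to, fell below detection. Its level was -3.80, -3.87 and -3.76 in the empty cells, where it was dim but above background on all 3 arrays. In GGCT-OE it measured -5.37, -5.52 and -5.54, on none of them well above background, so the GGCT-OE level is a bound. Lfng was lower in GGCT-OE by an approximate bound of 2.16-fold (measured means -3.81 ± 0.05 and -5.48 ± 0.09, SD, n = 3 each). The adjusted p of 0.000101 in limma belongs to the measured difference of -1.67, which rests on GGCT-OE values below detection, and not to the bound. The bound sets the empty mean against the lowest signal that was well above background on each GGCT-OE array. Such bounds, here and for other genes, are approximate, because a probe above that signal can still lack the flag. In GGCT-OE experiment 3 Hes1 (-4.45) was not well above background, while the lowest signal that was lay at -4.61. Another Lfng probe was below the background threshold on all 6 arrays. The call held in all 22 alternatives that gave a value, and normexp gave a difference of -0.35.

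The sequences just before the start of Lfng, Jag1 and Maml2 are shown because these 3 of the 4 genes that fell have a promoter entry in the RefSeq table used (build GRCm38.p6), and because Rbpj, through which Notch acts on its targets, binds a known core. They are 150 bases long, 5′ to 3′ on the gene's strand and ending at the base before the start; capitals mark the core TGGGAA or its reverse complement TTCCCA.
Lfng: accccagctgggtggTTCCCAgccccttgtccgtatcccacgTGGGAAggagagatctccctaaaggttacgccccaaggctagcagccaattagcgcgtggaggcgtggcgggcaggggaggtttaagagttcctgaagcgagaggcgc
Jag1: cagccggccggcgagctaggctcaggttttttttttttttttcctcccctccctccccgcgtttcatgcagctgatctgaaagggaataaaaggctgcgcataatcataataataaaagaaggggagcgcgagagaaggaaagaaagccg
Maml2: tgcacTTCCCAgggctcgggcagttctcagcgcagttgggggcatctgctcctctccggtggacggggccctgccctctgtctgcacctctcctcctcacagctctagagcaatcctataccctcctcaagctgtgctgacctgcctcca
The Lfng stretch lies at chr5:140607191-140607340 on the plus strand, the Jag1 stretch at chr2:137116521-137116670 on the minus strand, and the Maml2 stretch, at the downstream of its pair of listed starts, at chr9:13662310-13662459 on the plus strand.

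Searched over 250 bases before each start and on both strands, the core TGGGAA was found in 21.6% of all 32851 promoters, at 2 or more places in 2.77%, and the longer GTGGGAA, which contains the core, in 5.42%. Lfng held 2 cores, beginning 135 and 108 bases before its start, of which 1 was the longer form. Maml2 held 1 core at the start shown and none at its other start, and Jag1 held none. Which Maml2 start the cells used was not examined. Of the genes that did not pass the test, Rbpj held 2 cores before its first listed start, as many as Lfng, and 1 before the other, and Notch1, Notch2 and Notch3 held none. A match is a run of letters and not a measured binding site.

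Dtx4 was the gene that rose. It belongs to the Deltex family of RING-finger ubiquitin ligases, which bind Notch receptors and take part in their trafficking and turnover. Its level was 0.39, 0.67 and 0.47 in the empty cells and 1.55, 1.43 and 1.64 in GGCT-OE, well above background on all 6 arrays. All GGCT-OE arrays were clearly above all empty arrays. The difference was 1.03 ± 0.11 (SE), 2.04-fold higher, with an adjusted p of 0.00124 in limma. It passed in 22 of 23 alternatives, the exception being the fit without replicate 3 (0.96, adjusted p = 0.0521).

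Of the nuclear factors, Maml2 fell and Rbpj did not pass the test. Maml2 is a Mastermind-like coactivator that joins the Notch intracellular domain on Rbpj. Its brighter probe had levels of 1.42, 1.16 and 1.19 in the empty cells and 0.43, -0.10 and 0.20 in GGCT-OE. All 3 GGCT-OE arrays were below the empty arrays. The difference was -1.08 ± 0.16 (SE), 2.12-fold lower, with an adjusted p of 0.00377 in limma. The dimmer Maml2 probe shifted by -1.06 ± 0.12 (SE; probe-level adjusted p = 0.00145 in limma), and the shifts of both probes differed by -0.02 (exact permutation p = 1). The call was lost without replicate 3 (-1.13, adjusted p = 0.0714).

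Rbpj, the DNA-binding protein that turns Notch signals into transcription and represses the same sites without them, had levels of 3.95, 4.07 and 4.15 in the empty cells and 4.11, 4.23 and 4.23 in GGCT-OE. The groups overlapped, with each GGCT-OE array slightly above the empty array of its number. The difference was 0.14 ± 0.09 (SE; adjusted p = 0.30 in limma), and none of 23 alternatives took it past the threshold. Without empty replicate 1 the difference was 0.083. A dimmer Rbpj probe shifted by 0.25 ± 0.11 (SE; probe-level adjusted p = 0.142 in limma), with groups that did not overlap, and by the experiment block its adjusted p was 0.0248. Counted by probe, 6 of 11 tested member probes were called, 1 higher and 5 lower, against 35.2% of all probes tested, and the groups did not overlap in 8 of the 11, against 49.7%.

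**Figure D2:**
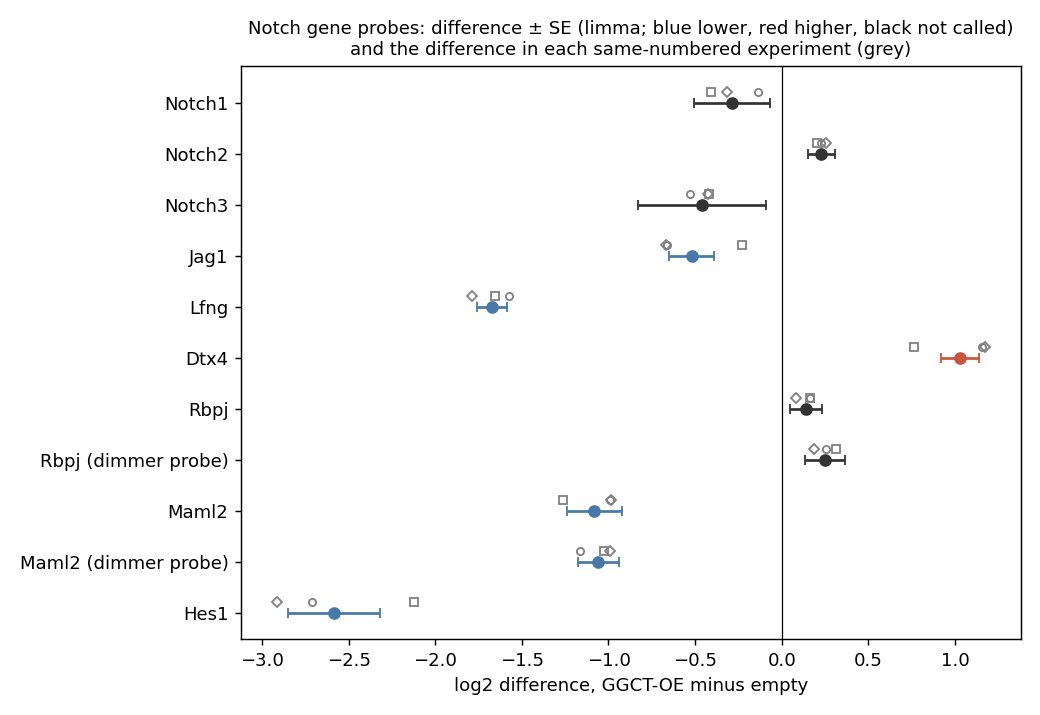
Difference between GGCT-OE and empty cells (horizontal axis, log2) for each tested probe of the Notch genes, as a filled point with a bar of 1 standard error (blue fell, red rose, black did not pass the test); grey open shapes give the difference within each numbered experiment. The measured Hes1 difference is -2.58, the probes of Maml2 lie together near -1.1, and the receptor probes lie between -0.46 and 0.23.

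The other 80 genes of a Notch pathway list, ordered by role, were called in both directions. Of these 69 were tested, of which 6 rose, 15 fell and 48 did not pass the test, with a median difference of 0.03 and a median size of 0.26, beside 34.8% called and 0.02 and 0.29 over all genes. With the experiment block 19 rose and 23 fell, beside 53.4% of all genes called. In the whole list 9 genes stayed below the background threshold on every array, among them the ligands Dll1 and Dll3 and the targets Hes5, Hey2, Heyl and Nrarp.

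At the receptors and ligands, the fourth receptor, Notch4, an endothelial receptor, measured 0.49, 0.45 and 0.34 in the empty cells and 0.28, 0.12 and 0.09 in GGCT-OE. The GGCT-OE arrays were the lower ones without overlap, with a difference of -0.26 and an adjusted p of 0.0744 in limma (0.0205 with the experiment block). Another Notch4 probe was not well above background on any array. Dner, a transmembrane ligand known from neurons, fell by 1.37 ± 0.29 (SE; adjusted p = 0.0134), was well above background on 1 of 3 GGCT-OE arrays, differed by -0.37 with normexp, and lost its call without GGCT-OE replicate 3 (adjusted p = 0.0531).

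Of the receptor-modifying enzymes, 9 of 10 listed were tested, 0 rose and 3 fell, Lfng among them, a share close to the 34.8% of all genes called. With the experiment block 1 rose and 6 fell, beside 53.4% of all genes called in that fit. Poglut2, an O-glucosyltransferase, fell by 0.52 (adjusted p = 0.00615), and its other probe shifted by -0.79. Xxylt1, a xylosyltransferase of the same sugar chain, fell by 0.51 (adjusted p = 0.0272), a call lost in 8 of 23 alternatives. Leaving out GGCT-OE replicate 1 or 3, or empty replicate 2 or 3, gave Xxylt1 an adjusted p of 0.0625 to 0.0964. In the cleavage group 1 of 10 rose and 0 fell (2 and 1 with the experiment block), a lower share than the 34.8% of all genes called. Furin, the protease that cuts the receptor on its way to the surface, was higher by 0.42 (adjusted p = 0.0116, and 0.0526 without GGCT-OE replicate 3). Adam10, the protease of the next cut after ligand binding, differed by -0.22 (adjusted p = 0.144), and with the experiment block the adjusted p was 0.0481.

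Among the genes of ligand and receptor uptake and turnover, both Neuralized genes fell. Neurl1a, a Neuralized ubiquitin ligase that acts on Notch ligands, measured -0.61, -0.77 and -0.41 in the empty cells and -2.58, -2.82 and -2.91 in GGCT-OE. All GGCT-OE arrays were far below the empty ones, a difference of -2.17 ± 0.14 (SE; adjusted p = 0.000197). Its relative Neurl1b was not well above background on any GGCT-OE array and was lower by an approximate bound of 3.00-fold (measured means -3.33 and -7.15). The adjusted p of 0.000134 in limma belongs to the measured difference of -3.82 and not to the bound, and normexp gave -0.78. Another Neurl1b probe was not well above background on any array. Fbxw7, the ubiquitin ligase subunit that marks the intracellular domain for breakdown, rose by 0.54 ± 0.12 (SE; adjusted p = 0.0190), with an adjusted p of 0.0545 to 0.0771 without empty replicate 2, empty replicate 3 or GGCT-OE replicate 3. Mib2, a Mind bomb ubiquitin ligase of ligand uptake, fell by 0.47 (adjusted p = 0.00999) and was named after its value was seen. Of 15 tested in this group 2 rose, Dtx4 among them, and 3 fell, a share close to the 34.8% of all genes called. With the experiment block 8 rose and 4 fell, beside 53.4% of all genes.

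In the nucleus, 2 of 9 genes of the activating complex fell and 0 rose, and with the experiment block 2 rose and 2 fell. Besides Maml2 this was Crebbp, a histone acetyltransferase, with a difference of -0.37 (adjusted p = 0.0442), a call lost in 12 of 23 alternatives, and its other probe shifted by -0.15. The Mastermind relatives Maml1 and Maml3 differed by 0.03 (adjusted p = 0.889) and 0.62 (adjusted p = 0.0571), and with the experiment block Maml3 passed the threshold as higher (adjusted p = 0.00236). Of 15 corepressors tested 2 rose and 1 fell, and with the experiment block 5 rose and 2 fell. Without the block, the activating complex and the corepressors were both called at a lower share than all genes (34.8%). With it 53.4% of all genes were called. Tle4, a Groucho-type corepressor that works with Hes proteins, measured 2.00, 1.66 and 1.81 in the empty cells and 3.18, 3.00 and 3.00 in GGCT-OE, a rise of 1.24 ± 0.12 (SE; adjusted p = 0.000815). Tle3 of the same family fell by 0.30 (adjusted p = 0.0266). The call of Crebbp was lost without any 1 of the arrays except empty replicate 1, and that of Tle3 without any 1 except GGCT-OE replicate 1 (highest adjusted p of 0.131 and 0.102).

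**Figure D3:**
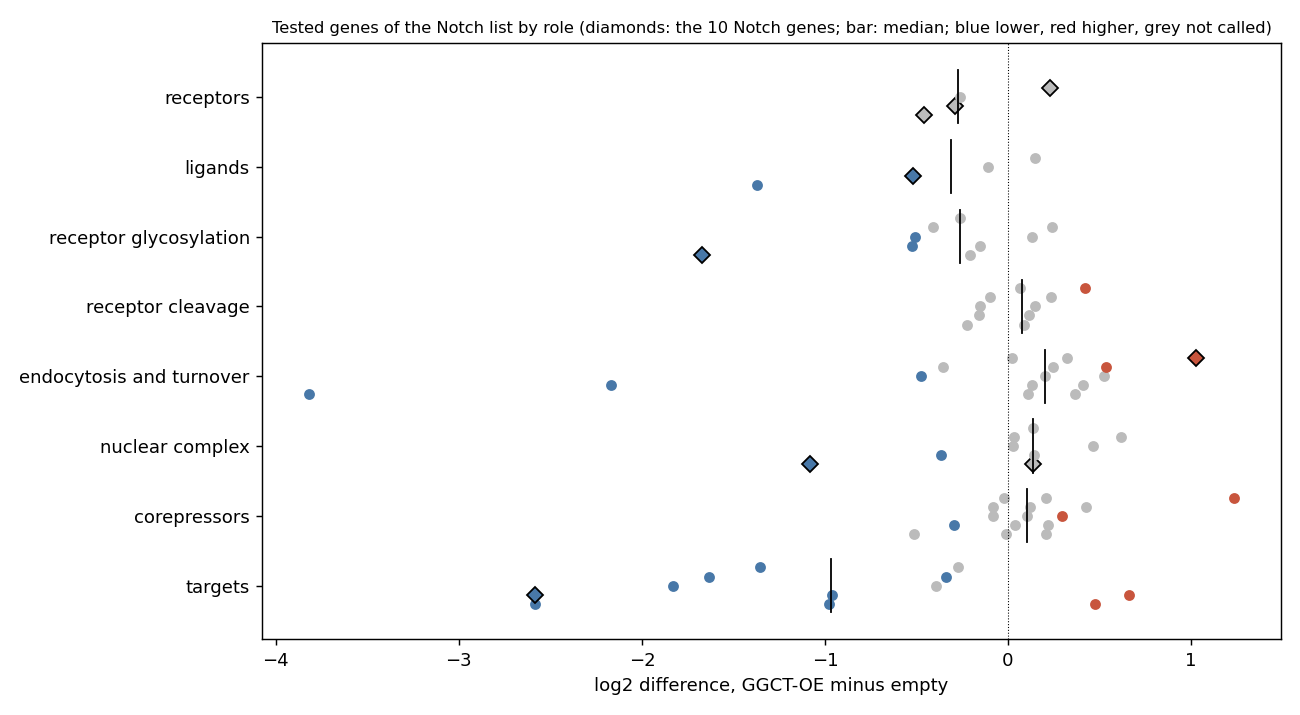
Difference between GGCT-OE and empty cells (log2) for each tested gene of the Notch list, grouped by role. Red points rose, blue points fell and grey points did not pass the test. Diamonds are the 9 tested of the 10 genes chosen by name, and bars are medians. The target group has a median of -0.97 and reaches to -2.58, while the lowest point of the list is Neurl1b (-3.82) in the turnover group. The receptor, ligand and glycosylation groups have medians between -0.31 and -0.26. Those of the cleavage, corepressor, nuclear and turnover groups lie between 0.08 and 0.21.

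Of the genes on the target list, 12 of 18 were tested, of which 8 fell, 2 rose and 2 did not pass the test, with a median difference of -0.97. Over all genes tested 17.3% fell and 17.5% rose, with a median of 0.02. The list was chosen with earlier results of these data known, and whether Notch acts on its genes in these cells was not tested. Snai2 (Slug), a zinc-finger repressor of epithelial genes, measured 3.64, 3.56 and 3.45 in the empty cells and 0.95, 0.89 and 1.07 in GGCT-OE. The arrays of each group lay close together and far from the other group, a difference of -2.58 ± 0.09 (SE; adjusted p = 3.41e-05), 5.99-fold lower. Hes6, a Hes protein that counteracts Hes1, measured 1.21, 0.94 and 1.01 in the empty cells and -0.37, -0.75 and -0.62 in GGCT-OE. It fell by 1.63 ± 0.13 (SE; adjusted p = 0.000501), and its other probe shifted by -1.59. Hes7, the oscillating repressor of the somite clock, rose by 0.48 (adjusted p = 0.0396), and its adjusted p lay between 0.0890 and 0.126 without empty replicate 1 or 3 or GGCT-OE replicate 2 or 3. Tgfb3, a transforming growth factor, rose by 0.66 (adjusted p = 0.00939). Hey1, a partner of Hes1 among the direct targets, had a difference of -0.27 (adjusted p = 0.373) with overlapping groups. That difference was -0.47 without GGCT-OE replicate 1, -0.096 without GGCT-OE replicate 2 and -0.15 without empty replicate 1.

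The other 5 called genes of the target list, all lower, stand outside the naming rule and are named after their values were seen. Id1, which binds helix-loop-helix factors and keeps them off DNA, fell by 1.83 (adjusted p = 0.00126). Ccnd1, cyclin D1, fell by 0.98 (adjusted p = 0.00767), and Cdkn1a, a cyclin-dependent kinase inhibitor, fell by 0.96 (adjusted p = 0.0105). Gata3, a zinc-finger transcription factor, fell by 1.35 (adjusted p = 0.00455), and Bhlhe40, a helix-loop-helix repressor, fell by 0.34 (adjusted p = 0.0201, and up to 0.0905 without empty replicate 1 or 3 or GGCT-OE replicate 2 or 3). Hes5, Hey2, Heyl and Nrarp, the other textbook Notch targets in the list, gave no value above background to compare.

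**Figure D4:**
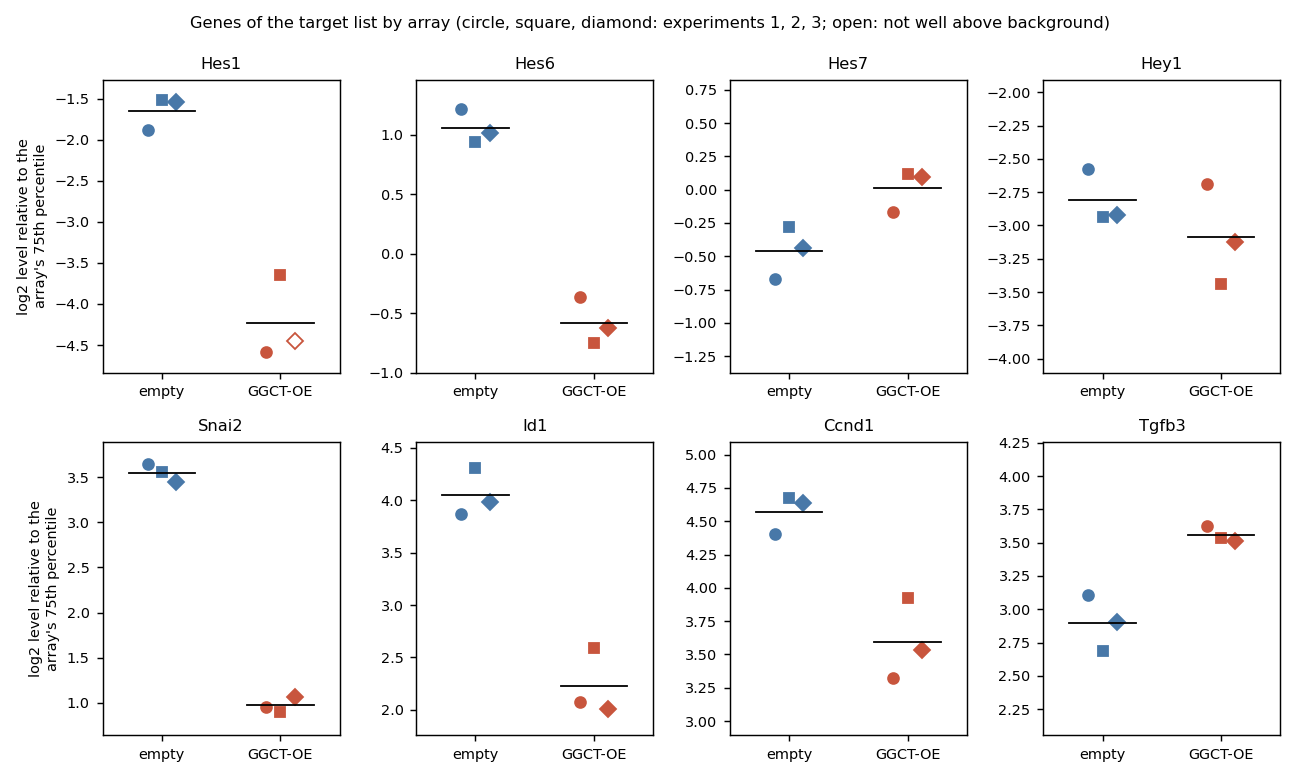
Level of 8 genes of the target list on every array, as log2 intensity relative to the array's 75th percentile (vertical axis, 1 panel a gene with its own range). Shapes give the experiment number and bars are group means. Hes1, Hes6, Snai2, Id1 and Ccnd1 are lower in GGCT-OE, Hes7 and Tgfb3 higher, and the groups of Hey1 overlap.

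The labelled cell type was checked with markers. Of 12 fibroblast markers 12 were well above background on all arrays, and of these 3 rose and 5 fell, beside 34.8% of all genes called. The largest difference among them was that of Postn, -5.87 (adjusted p = 0.000478 in limma). The log2 of their summed linear intensities, which the brightest probes carry, was 10.3 to 10.6 in the empty cells and 9.92 to 10.2 in GGCT-OE. Of 9 smooth muscle and pericyte markers 5 were above background on all arrays, and the log2 of the summed intensities was 6.69 to 6.94 in the empty cells and 6.08 to 6.55 in GGCT-OE. Tagln fell by 2.08 (adjusted p = 0.000101) and Acta2 fell by 0.41 (adjusted p = 0.0110), Cnn1 rose by 0.63 (adjusted p = 0.0133), and Rgs5 and Kcnj8 were below background on every array. The part of these markers in the Notch3 values was not tested. Of 7 endothelial markers Kdr, Tek and Emcn stayed below the background threshold on every array and Tie1 was above it on 1 GGCT-OE array. Cdh5 rose from below background on all empty arrays, by an approximate bound of 2.18-fold (adjusted p = 0.00030 in limma for the measured difference of 3.28). Pecam1 rose by 0.43 (adjusted p = 0.0480). Vwf fell below background in GGCT-OE, by an approximate bound of 1.44-fold (adjusted p = 0.00342 in limma for the measured difference of -2.30). The endothelial sum was -2.32 to -2.12 in the empty cells and -1.78 to -1.50 in GGCT-OE. Of the other lists, 4 of 6 leukocyte, 3 of 7 neural, 2 of 7 epithelial and 0 of 5 skeletal muscle markers were above background on all arrays. Detection of single markers therefore does not by itself tell cell types apart here. The neural marker Map2 fell below background in GGCT-OE, by an approximate bound of 27.6-fold (adjusted p = 9.30e-06 in limma for the measured difference of -7.08). The arrays had 54.6% to 61.7% of probes well above background, and Ggct itself was higher by 0.62 ± 0.12 (SE; adjusted p = 0.0111). In such bulk RNA, fewer cells of a type and less RNA per cell cannot be told apart.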

How the data were processed

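RNA was labelled in 1 colour and hybridised to Agilent mouse arrays, and the scanner files, per the file headers, were made with Agilent Feature Extraction 12.1.0.3. The deposited values used are that software's processed intensity. The deposited log2 table holds, up to a constant per array, the same values (correlation 1 over 17896 probes brighter than 200; column medians between -3.87 and -3.69), and was used as an alternative. Its scale and centring are known only through that match.

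Control spots and 578 outlier spots were left out, spots of a probe averaged, and log2 intensity taken relative to each array's 75th percentile (380.0 to 471). Names came from the accessions in the files of slide 2, since those of slide 1 differed for 334 probes. For each gene the probe with the highest mean over all arrays was used, among genes well above background on all arrays of 1 or both groups. R 4.3.3 with limma 3.58.1 (lmFit, eBayes) was used, tested on simulated data. Deviations of equal experiment numbers from their group means correlated by 0.731, 0.453 and 0.358. Unequal numbers were not compared, so pairing by number apart from the shared slide was not tested. With the number as a block 53.4% of all genes were called, and with slide as a block 53.6%. Of the wider list, up to 2 called genes per role and direction with the smallest p were named, except for a result that is not reported here; other listed genes named were chosen after their values were seen. Other alternatives were quantile and median scaling, normexp background, other filters and probe rules, trended variance, array weights, blocks for experiment or slide, and leaving out arrays. Members and lists were chosen with earlier results of these data known.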

Additional observations from a re-analysis of the deposited data

How the results depend on the processing

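No called Notch gene changed direction under any setting; Maml1, not called, changed from 0.03 to -0.0020 by median shift and ranged from -0.060 to 0.096 when arrays were left out. Of the 10 Notch genes 5 were called, against 3 of 7 tested with a filter over all 6 arrays, 8 with the replicate block (2 higher, 6 lower) and 7 with slide as a block. By probe the count was 6, against 10 with the replicate block. Leaving out an array or a replicate number gave 2 to 5 calls, with the lowest count without replicate 3, where Jag1, Dtx4 and Maml2 lost their calls. The share of all genes called moved from 34.8% to 53.4% with the replicate block, 53.6% with slide as a block, 53.9% with array weights, 10.5% without a filter, 21.3% without empty replicate 3, 12.3% without replicate 2 and 7.15% without replicate 3. The number of arrays limits the precision; the number of GGCT-OE arrays not well above background was 3 for Lfng and Neurl1b, 2 for Dner and Egfl7 and 1 for Hes1, and normexp on median spot signals gave smaller differences for these. Which transcripts the probes touch was not examined.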

Other observations

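Among the genes next to Notch1 on the chromosome, Egfl7, a secreted protein of endothelial cells known to bind Notch receptors, measured -0.70, -0.99 and -0.76 in the empty cells and -4.94, -6.58 and -5.15 in GGCT-OE, where 1 of 3 arrays was well above background (difference -4.74 ± 0.43, SE; adjusted p = 0.000712 in limma; -2.04 with normexp), while the median of the 20 neighbours was -0.09. Next to Dtx4, Fam111a differed by 1.22 ± 0.09 (SE; adjusted p = 0.000411 in limma), and the median of the 20 neighbours was 0.10. Both were singled out after their values were seen.

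The files of both slides give different gene names to 334 probes, of which 198 were above background on all arrays. With the names of slide 1, 8 of the 10 Notch genes were tested.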
